A study of Mus musculus with 8 samples.

Results

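The heat shock chaperones described here are 10 genes of the cytosolic and mitochondrial folding machinery, chosen by name: Hspa1a, Hspa1b, Hspa8, Hsph1, Hsp90aa1, Dnajb1, Hspb1, Cryab, Bag3 and Hspd1. They were read from arrays of the mouse heart. Each gene was represented by the brightest of the probes named by one of its RefSeq transcripts, provided that 4 or more of the 8 arrays had flagged the probe as well above background. By this rule 9 of the 10 genes had a probe, out of 15156 genes with a retained probe. No probe carried the name of an Hspa1b transcript, so Hspa1b was not analysed here. Hspa1a had already been seen among the genes with the largest difference between the groups when the genes were chosen. The values of the 9 genes in that comparison are therefore given as a description, without a test.

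The ventricles of 8 adult male mice of the C57BL\6 background were taken 24 hours after surgery. In 4 mice, called MI mice, the surgery was a permanent ligation of a coronary artery, which causes a myocardial infarction (MI). The occluded vessel was the anterior interventricular artery. The other 4, called sham-operated mice, underwent a sham operation. Per the study's methods, surgery was done under isoflurane on a heating pad, mice recovered in a warm incubator, and cardiac function was imaged with labeled glucose after acipimox, a drug that lowers fatty acids. Total RNA of each mouse was labeled with Cy3 and hybridized to its own array, with RNA of the whole ventricles and not of the infarct alone. Values are log2 signals scaled with synthetic spike-in probes, and folds are converted from these log2 units. For bright probes 1 unit is a 2-fold difference in signal. The scaling adds a constant to each signal, so for dim probes 1 unit is a larger difference in signal. The values are given for MI mice 1 to 4 and sham-operated mice 1 to 4, numbered by the replicate number of each sample.

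Heat shock proteins are chaperones that bind unfolded or damaged proteins, keep them from aggregating and help them to refold. Their genes are switched on by heat shock factor 1, which binds repeats of a short motif, the heat shock element, when unfolded proteins accumulate. In heart muscle, which carries a large mass of contractile protein under constant load, small heat shock proteins such as αB-crystallin are abundant also without stress. Lack of oxygen, acid and oxidants are among the known triggers of the response. HSP70 proteins work in a cycle with a J-domain protein that hands over the client and an exchange factor that releases it. HSP90 takes over clients from HSP70, small heat shock proteins hold unfolded proteins without using ATP, and HSP60 folds proteins in the mitochondrion.

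Promoter sequences are shown for Hspa1a and Hspa1b because they show how alike these copies are, and for Hspb1 and Hspd1 because they hold repeats of the heat shock element. They were read from RefSeq on the GRCm38.p6 build, as windows from 250 bases before to 50 bases after each annotated start site, and positions are counted from the start site, with 1 for its first base and -1 for the base before it. Of the 10 genes, 7 had such a window. Hspa1a (chr17:34969359-34972156) and Hspa1b (chr17:34956429-34959238) lie 10120 bases apart on the minus strand and encode nearly identical HSP70 proteins. Their windows differed at 4 of 300 bases, an identity of 98.7%, and the 70 bases from position -120 to position -51 were the same in both. The stretch of Hspa1a is at chr17:34972207-34972276 and that of Hspa1b at chr17:34959289-34959358, both upstream of the gene. The first run of capitals marks a heat shock element of 2 units and the second an inverted CCAAT box.
Hspa1a: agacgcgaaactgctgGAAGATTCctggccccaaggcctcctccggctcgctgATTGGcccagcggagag
Hspa1b: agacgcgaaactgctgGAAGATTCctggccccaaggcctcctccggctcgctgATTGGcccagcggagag
The window of Hspb1 (chr5:135887919-135889563, plus strand) held a pair of 2-unit elements within 44 bases upstream of the gene, at chr5:135887794-135887837, which are in capitals.
Hspb1: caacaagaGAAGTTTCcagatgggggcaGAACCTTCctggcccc
Hspd1 (chr1:55077833-55088243, minus strand) held the longest run of units among the 7, upstream of its second annotated start site and inside the annotated gene, at chr1:55088053-55088082. The capitals mark it.
Hspd1: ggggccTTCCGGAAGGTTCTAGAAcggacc

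A heat shock element was searched as GAANNTTC or TTCNNGAA for 2 units, and as GAANNTTCNNGAA or TTCNNGAANNTTC for 3 units. Both strands are covered, since each 2-unit pattern is its own reverse complement and the 3-unit patterns are the reverse complements of each other, and a 3-unit match contains 2-unit matches. The 2-unit pattern was present in 6 of the 7 genes with a window, all but Dnajb1, against 17.0% of 27025 genes with a window. The 3-unit pattern was present in 2 of the 7, Hsph1 and Hspd1, against 0.662% of all genes. Among the other chaperone genes described further on, 16 of 49 with a window (32.7%) held the 2-unit pattern and 3 of 49 held the 3-unit pattern. An ATTGG or CCAAT motif was in 5 of the 7 windows and in 41.1% of all genes. A match is a run of letters and not a site at which binding was measured. The measured genes with a match had log2 differences between MI mice and sham-operated mice that varied widely. They were 3.96 for Hspa1a, 1.30 for Hspb1, 0.71 for Hsph1, 0.21 for Bag3 and -0.01 for Hspd1, with the longest run of units. Dnajb1, without a match in its window, had a difference of 0.91. Whether matches and differences are linked was not tested.

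**Figure D1:**
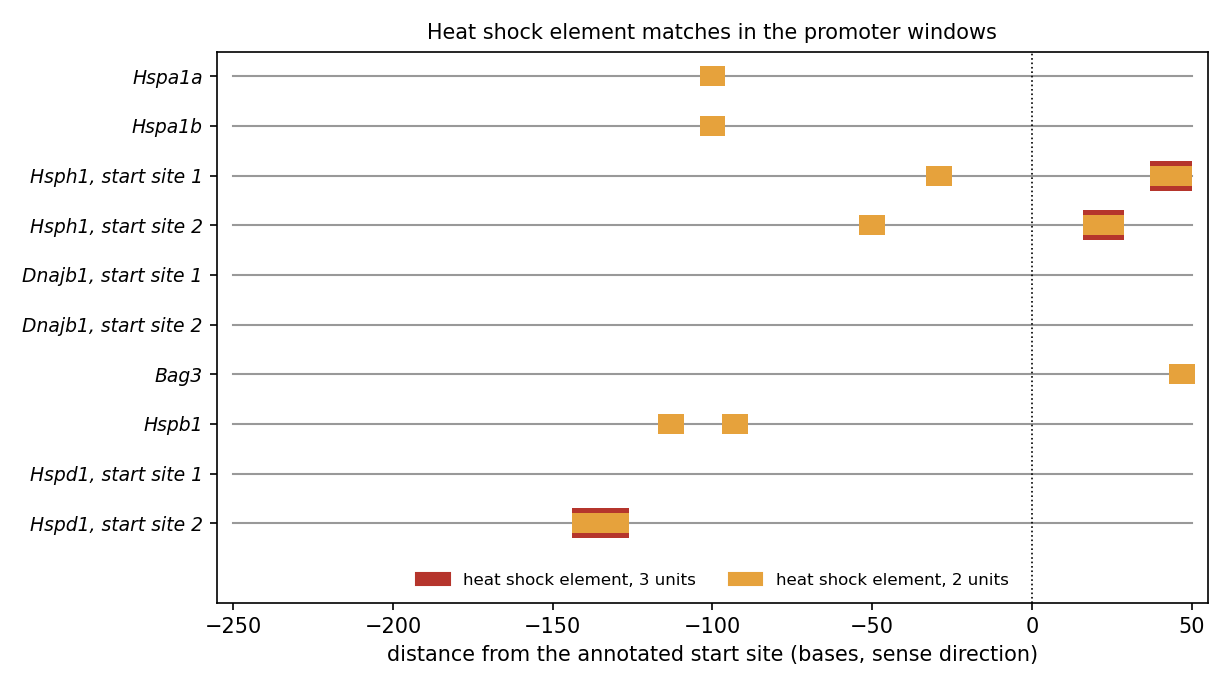
Positions of heat shock element matches in the promoter windows of 7 genes, as the distance in bases from each annotated start site (dotted line) in the sense direction. Grey lines are the windows, boxes are matches of 2 or 3 units, and genes with more than 1 start site have a line for each. Hspa1a and Hspa1b carry a match at position -104, Hspb1 has a pair at positions -117 and -97, and both lines of Dnajb1 are empty.

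In the ventricles of MI mice, Hspa1a and Hspb1 had the largest differences of the list. On the spike-in scale Hspa1a, the inducible HSP70, was 15.5-fold higher than in sham-operated mice. Hspb1, the small heat shock protein HSP27, was 2.46-fold higher. Hsph1, Dnajb1, Hsp90aa1 and Cryab were higher by 1.58-fold to 1.88-fold, with no overlap between the groups. The brightest probe of Hspa8, Bag3 and Hspd1 overlapped between the groups. Of the 9 genes, 2 had a fold over 2 with an adjusted p under 0.05 and 6 had an adjusted p under 0.05 at any fold, in limma. Of all 34038 retained probes, 0.940% were higher and 0.0382% lower by the first rule, and 3.38% were higher and 0.355% lower by the second. All MI mice were above all sham-operated mice for 6 of the 9 genes and for 6.65% of all probes, and below them for none of the 9 and for 2.39% of all probes. The count with an adjusted p under 0.05 at any fold depended on single mice. It was 3 without MI mouse 3, without MI mouse 4 or without sham-operated mouse 2, and 2 without sham-operated mouse 4. Since the genes were chosen with this comparison known, nothing is read from these counts. The median difference of the 9 genes was 0.71 on the log2 scale, beside a median of 0.03 over all retained probes. The arrays measured RNA of whole ventricles, in which a change in the number of cells of a type and a change in RNA per cell cannot be told apart. Neutrophil markers were also higher in MI mice, 7 of the 9 measured, and their part in the values of the chaperones was not tested.

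**Figure D2:**
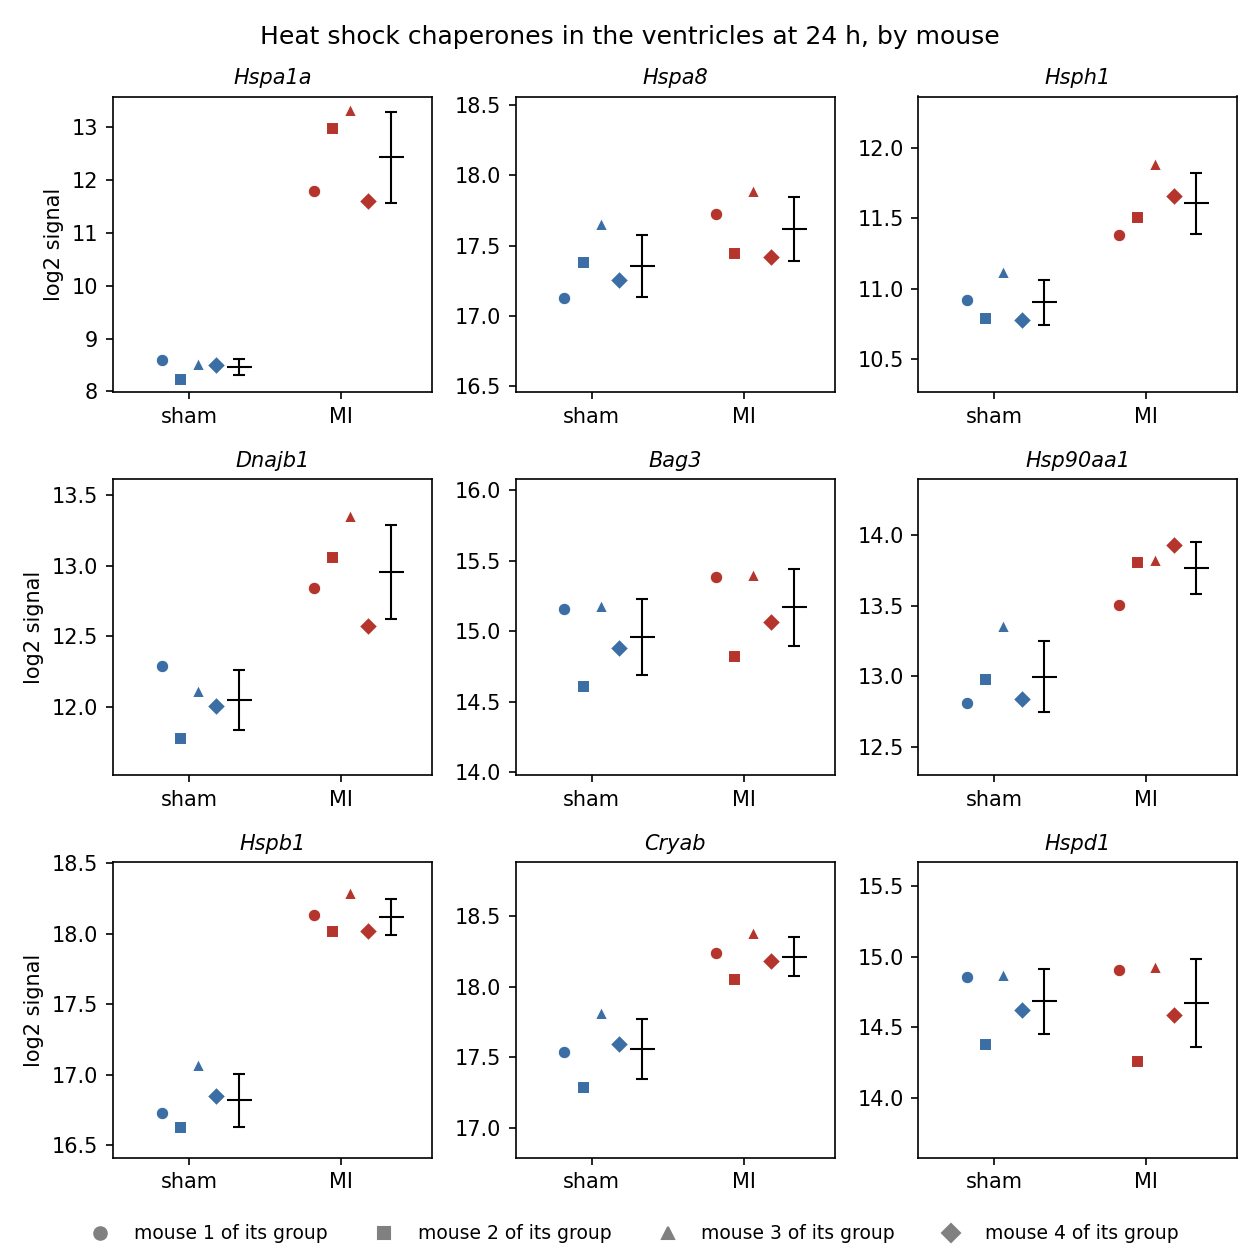
Log2 signal (vertical axis) of the brightest probe of 9 heat shock chaperones in 4 sham-operated mice (blue) and 4 MI mice (red). Each symbol is a mouse, and the black bars are the mean and SD of 4 mice. The vertical axes differ between panels. The groups are apart for Hspa1a, Hsph1, Dnajb1, Hsp90aa1, Hspb1 and Cryab and overlap for Hspa8, Bag3 and Hspd1.

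Hspa1a encodes the HSP70 protein that is nearly absent from unstressed cells and is made in quantity after injury. Its log2 signals were 11.79, 12.98, 13.32 and 11.59 in MI mice 1 to 4, against 8.59, 8.24, 8.53 and 8.49 in sham-operated mice 1 to 4. Every MI mouse was far above every sham-operated mouse, and MI mice 2 and 3 were above MI mice 1 and 4 by more than 1 unit. The means were 12.42 ± 0.86 in MI mice, against 8.46 ± 0.15 in sham-operated mice (SD, n = 4 each), a difference of 3.96 with a standard error of 0.37, or 15.5-fold. The unscaled signals were 208, 98, 120 and 134 in sham-operated mice and 3211, 9879, 8933 and 3349 in MI mice. The probe was well above background on all 8 arrays.

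The fold of Hspa1a depended on the scaling more than that of any other gene in the list. The spike-in fit adds a constant to each signal before the logarithm is taken, and the constants of the sham-operated mice, 255, 197, 166 and 180, were each larger than the signal of Hspa1a on the same array. Such a constant compresses the fold of a dim probe. The constants of the authors' log2 values, estimated here by fitting those values to the scanner signals, were between 3.16 and 19.6. In the authors' values the difference was 5.07, or 33.6-fold. With each array scaled to its 75th percentile and no constant it was 5.06, or 33.5-fold. With any 1 mouse left out it was between 3.66, without MI mouse 3, and 4.23, without MI mouse 4. The Hspa1a probe has the name of the Hspa1a transcript, but Hspa1b is a near-identical copy, and whether RNA of Hspa1b also bound to the probe was not tested.

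Hspa1l is another gene of the cluster and encodes an HSP70 protein best known from the testis. Its annotated span lies 546 bases from that of Hspa1a, on the side of the Hspa1a promoter. Hspa1l read 9.60, 9.42, 9.68 and 9.86 in MI mice, against 9.38, 9.10, 9.32 and 9.22 in sham-operated mice. All MI mice were above all sham-operated mice, by 0.39 on the log2 scale in the mean, but the difference did not pass the test (limma, adjusted p = 0.0930).

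Hspa8 encodes HSC70, the constitutive HSP70 of the cytosol, which is present in unstressed cells. Its brightest probe read 17.73, 17.45, 17.89 and 17.42 in MI mice, against 17.13, 17.39, 17.65 and 17.25 in sham-operated mice. The groups overlapped, and the mean was 0.26 higher in MI mice (standard error 0.14), or 1.20-fold. The gene had 2 more probes, both well above background on all arrays, and their groups did not overlap. On the first the log2 signals were 16.45, 16.24, 16.65 and 16.19 in MI mice, against 15.61, 15.67, 16.00 and 15.77 in sham-operated mice, a difference of 0.62. On the second they were 14.07, 13.54, 14.42 and 13.56 in MI mice, against 13.09, 12.98, 13.14 and 12.85 in sham-operated mice, a difference of 0.88. The 3 probes of this gene therefore gave 1.20-fold, 1.54-fold and 1.85-fold, and the mean over them was 0.59 on the log2 scale. No array was saturated at any of these probes.

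Dnajb1 and Hsph1, which encode partners of HSP70 in its cycle, were higher in each MI mouse than in each sham-operated mouse. Dnajb1, the J-domain protein HSP40 that loads clients onto HSP70, read 12.84, 13.06, 13.35 and 12.57 in MI mice, against 12.29, 11.78, 12.11 and 12.01 in sham-operated mice. Its lowest MI mouse was above its highest sham-operated mouse by 0.28, and the difference was 0.91 (standard error 0.17), or 1.88-fold. This was the largest difference among the genes that stayed under the 2-fold limit. Without MI mouse 4 it was 1.04, which is past the limit, and without MI mouse 3 it was 0.78. Hsph1, the HSP110 protein that acts as an exchange factor for HSP70, read 11.38, 11.51, 11.89 and 11.66 in MI mice, against 10.92, 10.79, 11.12 and 10.78 in sham-operated mice. The groups did not overlap, and the difference was 0.71 (standard error 0.12), or 1.63-fold. Its second probe gave 0.65 and also did not overlap.

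Bag3, an exchange factor that links HSP70 to small heat shock proteins and to the autophagy of damaged sarcomere proteins, had a smaller difference. It read 15.39, 14.83, 15.40 and 15.07 in MI mice, against 15.16, 14.61, 15.18 and 14.88 in sham-operated mice. The groups overlapped throughout, and the difference of 0.21 was close to its standard error of 0.17.

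Hsp90aa1 encodes the stress-inducible HSP90 of the cytosol, which matures kinases and hormone receptors. It read 13.50, 13.81, 13.82 and 13.93 in MI mice, against 12.81, 12.98, 13.36 and 12.84 in sham-operated mice. The lowest MI mouse was above the highest sham-operated mouse by 0.15, and the difference was 0.77 (standard error 0.14), or 1.71-fold. With arrays scaled to the 75th percentile the difference was 0.65 and the groups overlapped, since MI mouse 1 at 4.52 was below sham-operated mouse 2 at 4.56 on that scale. Hsp90ab1, the constitutive partner gene, had a difference of 0.05 (limma, adjusted p = 0.937), which was -0.08 at the 75th percentile.

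Among the small heat shock proteins, Hspb1 encodes HSP27, which binds actin filaments and unfolded proteins. Its log2 signals were 18.14, 18.02, 18.29 and 18.02 in MI mice, against 16.73, 16.63, 17.07 and 16.85 in sham-operated mice. The groups were separated by 0.95, and the means of 18.12 ± 0.13 and 16.82 ± 0.19 (SD, n = 4 each) differed by 1.30 with a standard error of 0.11. This is a 2.46-fold difference, which makes Hspb1 the gene just inside the 2-fold limit and Dnajb1 the gene just outside. It was between 1.24 and 1.38 with any 1 mouse left out. Its unscaled signals were from 278713 to 332866 in MI mice, against 99012 to 129623 in sham-operated mice.

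Cryab encodes αB-crystallin, a small heat shock protein of the sarcomere and the desmin network. Its brightest probe read 18.24, 18.05, 18.38 and 18.18 in MI mice, against 17.53, 17.29, 17.81 and 17.60 in sham-operated mice. The groups did not overlap, and the difference was 0.66 (standard error 0.12), or 1.58-fold. The second probe read 16.00, 15.62, 16.19 and 15.78 in MI mice, against 15.25, 14.50, 15.09 and 14.94 in sham-operated mice, a difference of 0.95, or 1.93-fold. Both probes of Cryab thus had MI mice above sham-operated mice, by amounts that differed.

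Hspd1 encodes HSP60, which with its lid protein HSP10 folds imported proteins in the mitochondrial matrix. It read 14.90, 14.26, 14.93 and 14.59 in MI mice, against 14.86, 14.38, 14.87 and 14.62 in sham-operated mice. The groups overlapped, and the difference was -0.01 (standard error 0.17). Scaled to the 75th percentile the gene was lower in each MI mouse than in each sham-operated mouse, by 0.15 in the mean. Hspe1, the gene of HSP10, starts at a shared promoter, and its annotated span overlaps that of Hspd1 by 96 bases. Its difference was -0.09 (limma, adjusted p = 0.854).

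**Figure D3:**
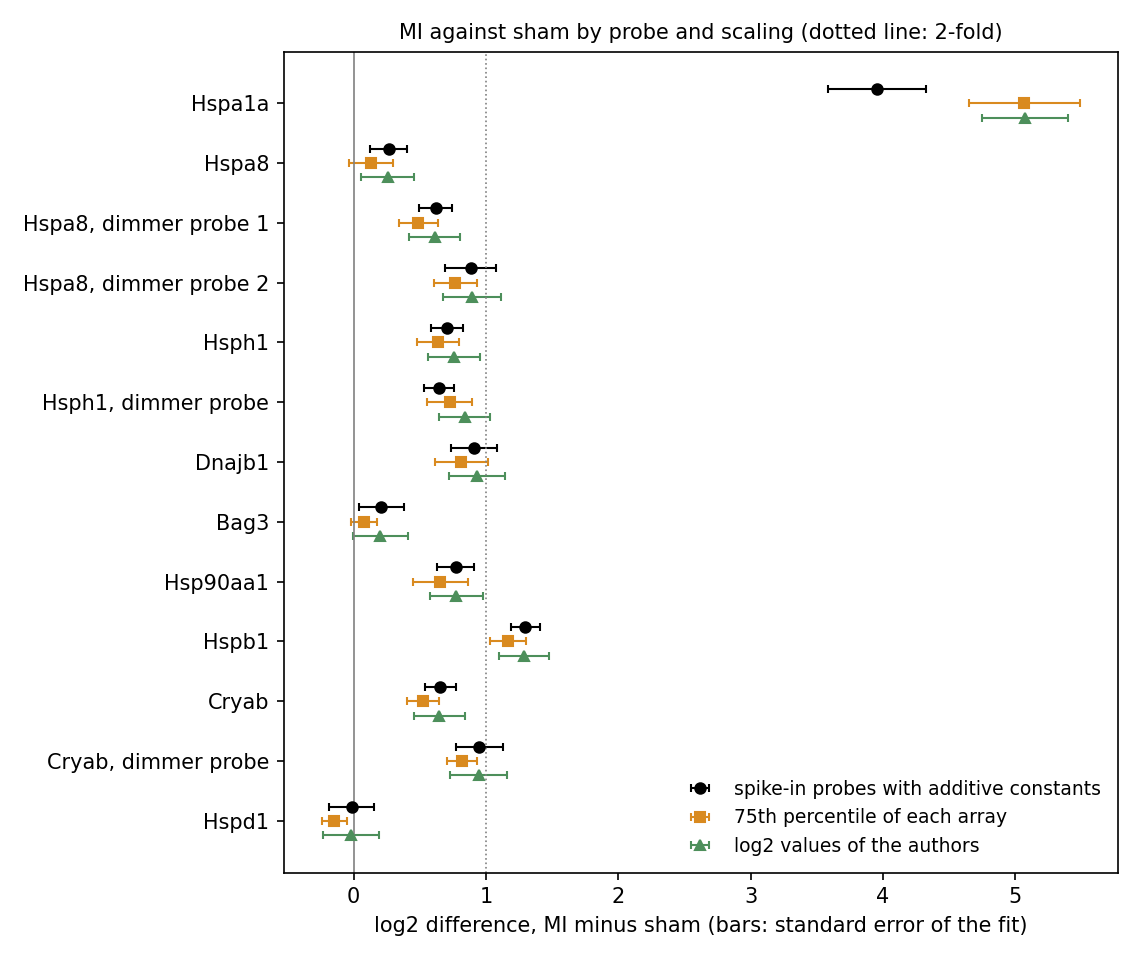
Log2 difference between MI mice and sham-operated mice (horizontal axis) for the brightest and the dimmer probes of 9 heat shock chaperones, with 4 mice per group. Points are fitted differences and bars their standard errors, under the spike-in scaling (black), the 75th percentile of each array (orange) and the log2 values of the authors (green). Hspa1a moves from 3.96 to 5.07 between scalings, and under the spike-in scaling the probes of Hspa8 run from 0.26 to 0.88.

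The order of the 4 MI mice depended on the scaling for most of the genes. With the spike-in scaling, MI mouse 3 had the highest value of its group for 8 of the 9 genes, and MI mouse 4 had the highest Hsp90aa1. Scaled to the 75th percentile, MI mouse 2 was highest for 7 of the 9 genes. The arrays themselves differed: relative to the mean of the 8 arrays, the median of all retained probes was 0.11 in MI mouse 3 and -0.14 in MI mouse 2 on the log2 scale. Under both scalings Hspa1a and Dnajb1 were higher in MI mice 2 and 3 than in MI mice 1 and 4. On the 75th percentile scale the values of Hspa1a were 4.54 and 4.27 in the first pair and 2.73 and 2.64 in the other. Those of Dnajb1 were 4.62 and 4.31, against 3.83 and 3.67. Hspa1a also had the largest SD of the 9 genes among MI mice, 0.86, while the other 8 genes had an SD between 0.13 and 0.33. Among sham-operated mice the SD of Hspa1a under the spike-in scaling was 0.15, the lowest of the list. Its unscaled signals in these mice were smaller than the additive constants of that scaling. On the 75th percentile scale the sham-operated mice were closer together for Hspd1, Bag3, Dnajb1, Cryab, Hsph1 and Hspb1 than for Hspa1a.

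**Figure D4:**
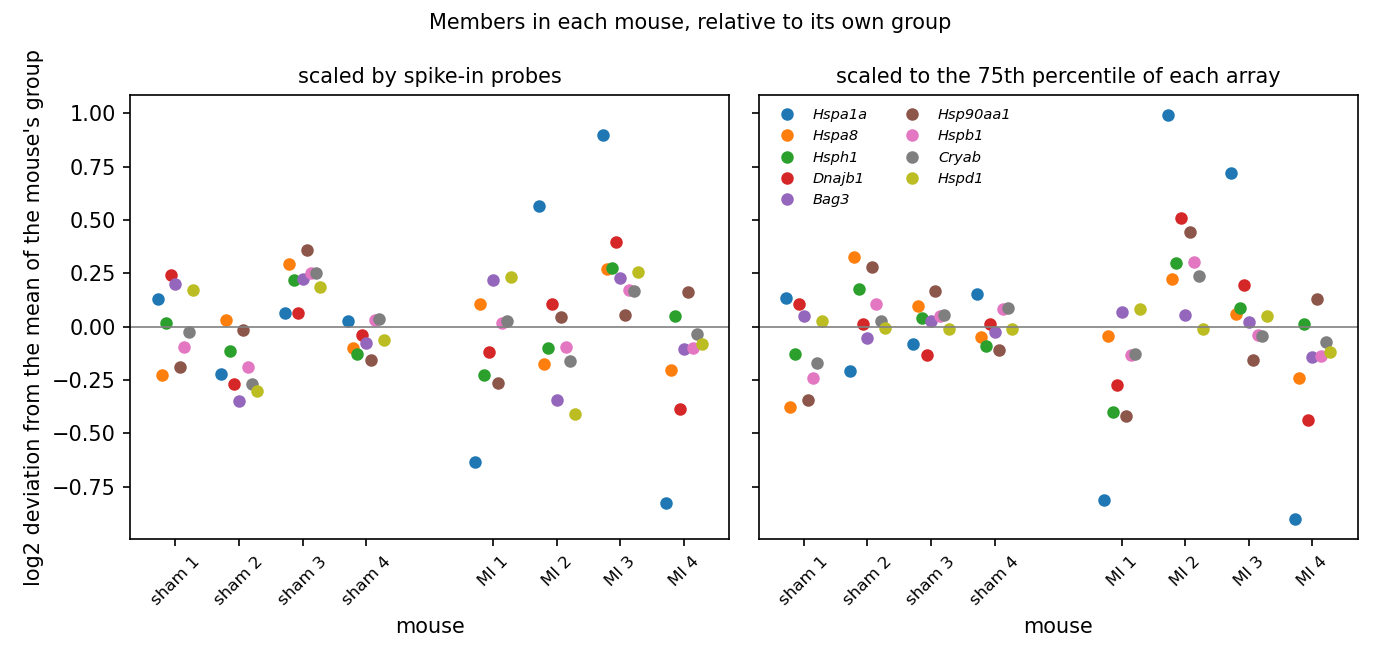
Log2 deviation of each of 9 heat shock chaperones (colours) from the mean of the mouse's own group, for 4 sham-operated and 4 MI mice. The left panel uses the spike-in scaling and the right panel the 75th percentile of each array. Hspa1a and Dnajb1 are above their group mean in MI mice 2 and 3 and below it in MI mice 1 and 4 in both panels. For most of the genes the order of the MI mice changes between panels.

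In the wider chaperone network, 3 of 58 measured genes passed the test at any fold. A list of 60 other chaperone, cochaperone and heat shock factor genes in 7 classes was measured at 58 genes, all but Dnajb5 and Hsf5. In limma, 1 of the 58 passed at a fold over 2, Hspb7, and 3 passed at any fold, Hspb7, Hspb2 and Stip1, all higher in MI mice, beside 0.940% and 3.38% of all probes. No gene passed as lower in limma, 1 did at an unadjusted p under 0.05 and in significance analysis of microarrays, and none in an unmoderated test. The median difference of the 58 was 0.07, and -0.02 at the 75th percentile. All MI mice were above all sham-operated mice for 6 of the 58 genes and below them for 1. Over all probes these shares were 6.65% and 2.39%. Whether the shares of the 58 genes differ from those of all probes was not tested. At an unadjusted p under 0.05, 13 genes were higher. The share of all probes under that unadjusted limit was not counted, so nothing is read from any count by it. The count at any fold was 1 without MI mouse 1, without MI mouse 3 or without sham-operated mouse 4, and 7 without MI mouse 2. It was also 1 with the authors' values and with a spike-in shift and no constant, 6 at the 75th percentile and with quantile normalization, 9 with normexp and in significance analysis of microarrays, and 0 in the unmoderated test. Hspb2 is named here after its values were seen, as are Hsp90ab1, Hspb6 and Hspb8.

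Of the 6 other small heat shock protein genes measured, 2 rose and all 6 had a positive difference, 5 of them also at the 75th percentile, with a median of 0.40. Hspb7, a small heat shock protein of heart and skeletal muscle, read 14.86, 14.59, 15.32 and 14.67 in MI mice, against 13.88, 13.10, 13.72 and 13.48 in sham-operated mice. The groups did not overlap, and Hspb7 rose by 1.32 (standard error 0.20, limma, adjusted p = 0.00999), or 2.49-fold. Hspb2, whose annotated span on chromosome 9 lies inside that of Cryab, rose by 0.58 (limma, adjusted p = 0.0184). The call of Hspb7 held with any 1 mouse left out, at an adjusted p of at most 0.0414 in limma, while that of Hspb2 reached 0.0687. Hspb2 also did not pass with the authors' values or with a spike-in shift and no constant, where Hspb7 did. Neither gene passed in the unmoderated test. Hspb6 and Hspb8 had differences of 0.54 and 0.25 and did not pass (limma, adjusted p = 0.284 and 0.400). Cryaa, the αA-crystallin of the lens, read between 7.77 and 8.02 in all mice, with a difference of 0.02. Its unscaled signals, from 16.1 to 43.4, were smaller than the additive constants, which compress such values. At the 75th percentile it ran from -4.41 to -3.37, with a difference of -0.01.

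Of the 11 genes of HSP90 and its cochaperones, 1 rose. This was Stip1, which encodes the HOP protein that passes clients from HSP70 to HSP90. It read 11.71, 11.27, 11.75 and 11.76 in MI mice, against 10.91 to 11.26 in sham-operated mice, and rose by 0.57 (limma, adjusted p = 0.0478). The call was lost without MI mouse 1, 3 or 4 or without sham-operated mouse 2, 3 or 4, with an adjusted p of up to 0.151 in limma. It was also lost with the authors' values (adjusted p = 0.0772), with a spike-in shift and no constant (0.146), without a detection filter (0.0869), with dim spots set to missing (0.0504), with the array row as a block (0.0650) and in the unmoderated test (0.150). The lowest gene of the class was Ppid, the cyclophilin that binds HSP90, at -0.24 (limma, adjusted p = 0.652).

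None of the 9 measured chaperonin genes passed the test in limma, and significance analysis of microarrays passed 2 of them. At an unadjusted p under 0.05, for which the share over all probes was not counted, 5 were higher. Of the 9, 8 had a positive difference, 7 of them also at the 75th percentile, and the median was 0.33. Cct3, a subunit of the cytosolic TRiC chaperonin that folds actin and tubulin, had the largest at 0.61 (limma, adjusted p = 0.0553) with a range of 11.90 to 12.45 in MI mice, against 11.34 to 11.76 in sham-operated mice. Cct3 passed in limma with arrays scaled to the 75th percentile (adjusted p = 0.0183), with quantile normalization (adjusted p = 0.00855), with normexp (adjusted p = 0.00306) and over probes detected on all 8 arrays (adjusted p = 0.0473). None of the 8 exchange factors and HSP70 cochaperones passed in limma, and 1 was higher at an unadjusted p under 0.05 and passed in significance analysis of microarrays. Bag2, which blocks the HSP70 ubiquitin ligase CHIP, had a difference of 0.57 (limma, adjusted p = 0.132) and Bag1 of -0.03. Bag2 passed in limma with arrays scaled to the 75th percentile (adjusted p = 0.0370), with quantile normalization (adjusted p = 0.0205) and with normexp background correction (adjusted p = 0.00815).

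The other HSP70 and J-domain genes were divided in sign. Of 9 HSP70 and HSP110 genes, 6 had a positive and 3 a negative difference, from -0.18 for Hspa14 to 0.39 for Hspa1l, and the median was 0.05, or -0.07 at the 75th percentile. Of 11 J-domain genes, 5 were positive and 6 negative, with a median of -0.03, or -0.17 at the 75th percentile. Dnajb4, a cytosolic relative of Dnajb1, had the highest difference, 0.51 (limma, adjusted p = 0.0909), and Dnajc9, a J-domain protein of the nucleus that handles histones, the lowest. Dnajc9 read 11.34, 10.55, 11.08 and 11.19 in MI mice, against 11.67, 11.40, 11.76 and 11.61 in sham-operated mice, a difference of -0.57 that did not pass (limma, adjusted p = 0.117). With arrays scaled to the 75th percentile it was -0.76 and passed (limma, adjusted p = 0.00398). Hsf1, the factor that drives the heat shock response, had a difference of 0.12 (limma, adjusted p = 0.861). The lowest of the 4 heat shock factor and binding protein genes was Hsbp1, which encodes a negative regulator of that factor, at -0.11.

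**Figure D5:**
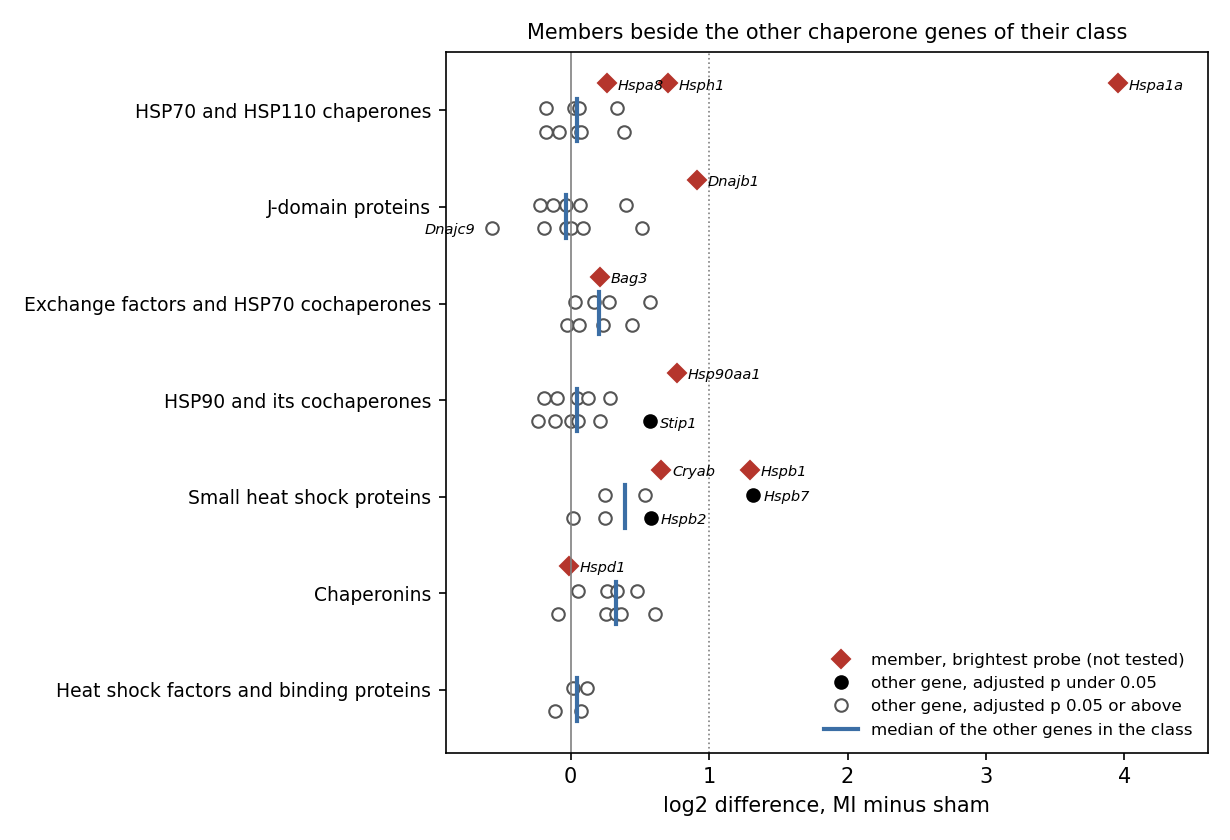
Log2 difference between MI mice and sham-operated mice (horizontal axis) for 58 other chaperone genes in 7 classes (circles, filled where the adjusted p of limma was under 0.05) and for 9 heat shock chaperones (red diamonds, described without a test). Blue bars are the medians of the circles in a class, and the dotted line marks 2-fold. Hspb7 at 1.32 is the gene among the circles that lies past it.

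The genes outside the list whose levels over the 8 mice were most like the mean of the 9 chaperones were Ankrd1, Arf6, Rnf115, Ankrd10 and Ripk3, out of 14021 genes that were well above background in every mouse. Likeness was the root mean square difference between centred log2 values, and it was 0.055 for Ankrd1, a muscle ankyrin repeat protein, and 0.082 for Ripk3, a kinase of necroptosis. The differences between MI mice and sham-operated mice for these 5 genes were between 0.96 and 1.06, so the likeness rests mainly on the distance between the groups. The mean of the 9 chaperones includes Hspa1a, with a difference of 3.96, while the median difference of the 9 was 0.71. The single gene Hspa1a therefore weighs on which genes were most like the mean.

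All 8 arrays shared 1 slide and 1 scan, and each of its 2 rows held 2 mice of each group. Between 58.6% and 66.4% of spots were well above background, and the small number of arrays limits the precision. Hspa1a differed by 3.97 within the first row and by 3.95 within the second, and Hspb1 by 1.40 and 1.20. Markers of cardiomyocytes were at high levels in all mice: none of 10 passed in limma or significance analysis of microarrays, 1 was lower at an unadjusted p under 0.05, and their summed linear signal was 2.36e+06 to 3.51e+06 in MI mice, against 2.62e+06 to 3.54e+06 in sham-operated mice. Of 9 neutrophil markers measured, 7 rose, and their sum was 255896 to 371794 in MI mice, against 78353 to 120818 in sham-operated mice, while Ly6g was not measured. Of 8 monocyte and macrophage markers 2 rose, Cd14 and Ccr2, with sums of 39431 to 58471 in MI mice, against 33334 to 60873 in sham-operated mice. None of 10 fibroblast and none of 10 endothelial markers passed in limma, while 1 and 2 were higher at an unadjusted p under 0.05 and significance analysis of microarrays passed 1 of each. The fibroblast sums were 67432 to 144324 in MI mice, against 109582 to 165269 in sham-operated mice, and the endothelial sums were 35505 to 56214, against 41588 to 52130. The neutrophil sum did not overlap between the groups, while the sums of the other lists did. The part of any cell type in the values of the chaperones was not tested.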

How the data were processed

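Ventricular RNA was measured in 8 mice, 4 per group, with 1 array each. Feature Extraction 11.0.1.1 made the deposited intensities, per the file headers, by subtracting the background and removing spatial trends within each array. The authors' log2 values were normalized between arrays with spike-in probes (limma and vsn), leaving out spots not well above background.

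Here, the vsn model was fitted to 234 spots of 7 spike-in probes with an own implementation. The additive constants were between 166 and 257. A probe was retained when 4 or more arrays flagged it as well above background, which left 34038 of 55681. Groups were compared in limma 3.58.1 (R 4.3.3) without covariates, with Benjamini-Hochberg adjustment over the retained probes. A probe was called at a fold over 2 and an adjusted p under 0.05. The fit and its call rule were tested on simulated data. Each sample is a separate mouse. The heat shock chaperones were chosen with their values in this comparison known, so these carry no test.

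The genes and lists were chosen with earlier results of these data known. The genes named beside the 10 are those called among 60 other chaperone genes, the highest and lowest of each of 7 classes and the 5 most like the mean of the chaperones. Alternatives were other scalings, filters and tests, blocks for array row and replicate number, the mean over probes and each mouse left out in turn. Normexp used median intensities with an offset of 50. Python 3.11.15 with numpy 2.4.6, scipy 1.17.1, pandas 2.3.3 and matplotlib 3.10.9 was used.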

Additional observations from a re-analysis of the deposited data

Results flagged for a closer look

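In 2 of 46 gene and group combinations tested, a mouse was far from the other 3 mice of its group, and chance alone gives such a distance in about 1 of 20 groups. Both were cochaperones of HSP90 in MI mouse 2. For Ppid, its gap to the nearest other mouse was 0.982 of the range of the group, with a log2 signal of 11.31 against 11.96 to 11.97. For Stip1 the gap was 0.898 of the range, with 11.27 against 11.71 to 11.76. The array of MI mouse 2 was also the lowest of the MI arrays in the median of all retained probes, at -0.14 on the log2 scale relative to the mean of the 8 arrays, and its part in these values was not tested.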

How the results depend on the processing

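The 9 heat shock chaperones were chosen with this comparison known, so their counts are a description and no sign of stability. The count at the 2-fold limit was 2 under the other settings and 2 to 3 with 1 mouse left out, beside 0.940% of all probes called higher as reported. The median difference of the 9 genes was between 0.64 and 0.77 under other settings and between 0.61 and 0.78 with 1 mouse left out. At an adjusted p under 0.05 and any fold, between 2 and 7 of them passed. No called result changed direction under these settings.

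The number of probes called depended on the scaling. It was 333 as reported, 1444 scaled to the 75th percentile, 1520 with arrays shifted by spike-in signals and no constant, 1407 with quantile normalization, 1013 with the authors' values and 541 with normexp. With 1 mouse left out it was between 262 and 382. The share that was higher in MI mice was 96.1% as reported, 72.2% at the 75th percentile, 68.0% with quantile normalization and 82.1% with normexp. The median of all retained probes moved from 0.03 to 0.11 with the shift and to -0.04 with quantile normalization.

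The call of 1 other chaperone gene became 0 in the unmoderated test, in which Hspb7 had an adjusted p of 0.0693, and was 1 with any mouse left out. The arrays of an MI mouse and a sham-operated mouse with the same replicate number lay side by side in the same row of the slide. Deviations of mice with the same number correlated at between 0.00105 and 0.364, and 3 of 8 mice correlated best with their own number. So few mice cannot decide whether the number pairs them. With the replicate number as a block, 341 probes were called, the chaperones called were 2 with a median of 0.71, and 19 other chaperone genes passed at any fold in place of 3. The depth of the signal limits Hspa1a most, since its sham values lay near the additive constants.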
